A study of Homo sapiens with 3 samples.

Results

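The outer part of the long arm of chromosome 7 (distal 7q) was taken as every HMGA1 peak on chromosome 7 whose summit lay at base 98000000 or beyond on the hg19 build. This gave 7175 of 385953 HMGA1 peaks called over input DNA (the input list) and 3885 of 263033 called over histone H3 (the H3 list). The members were chosen by position alone. The peaks came from chromatin immunoprecipitation followed by sequencing (ChIP-seq) in the human leukaemic line DAMI, whose disease label reads MPN/AML (myeloproliferative neoplasm or acute myeloid leukaemia). There were 3 libraries of 1 sample each, an HMGA1 ChIP, an H3 ChIP and input DNA without antibody, all from this 1 line in serum-containing RPMI medium, and the labels give no treatment. Both lists share the HMGA1 library, so a site found in both is not replication. With no replicates no test was possible, and every interval below is a 95% interval that covers counting error only.

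HMGA1 is an architectural chromatin protein whose AT-hooks bind the minor groove of AT-rich DNA. Histone H3 is part of every nucleosome, and its ChIP serves here as a control for chromatin-bound DNA, whereas input is sheared DNA taken without any antibody. The long arm of chromosome 7 is often lost, in whole or in part, in myeloid neoplasms. It carries CUX1, a homeobox transcription factor, and EZH2, the catalytic subunit of Polycomb repressive complex 2, which methylates lysine on histone H3.

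Each deposited row gave a fold of HMGA1 over its control and a p-value at the summit, from which the HMGA1 reads and the control level at that summit were recovered. The fold has 1 added to HMGA1 and 1 to the control, and over H3 HMGA1 is first scaled by 0.787. HMGA1 reads are given unscaled, and control levels are on a different scale in each list. The peak caller does not let the control go below a genome-wide lowest level, which was 2.78 reads for input and 2.19 for H3. A peak at this level therefore lies where local control coverage was at or under the genome-wide value. Fewer DNA copies and poorer coverage of a region cannot be told apart from these levels, and copy number was not measured.

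Distal 7q carried HMGA1 peaks at nearly the density of the short arm (7p, summits below base 58000000). In the input list there were 117.4 peaks per Mb in distal 7q (exact Poisson interval 114.7 to 120.2, over 61.11 Mb) and 115.7 per Mb in 7p (112.9 to 118.5, 6709 peaks over 58.0 Mb). Their ratio was 1.02, with an exact interval of 0.982 to 1.05 that includes equal density. In the H3 list there were 63.6 peaks per Mb in distal 7q (61.6 to 65.6) and 60.3 in 7p (58.4 to 62.4, 3500 peaks), a ratio of 1.05 (1.006 to 1.103). Peaks were uneven along the arm, where 30 whole bins of 2 Mb held 128.8 ± 86.3 H3-list peaks (mean ± SD over neighbouring bins, which are not replicates), and the intervals take no account of that. Against the inner long arm (58000000 to 98000000) the H3-list ratio was 0.973 (0.926 to 1.023), an interval that includes equal density. The higher H3-list density was thus seen against 7p and not against the inner long arm.

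The heights of the peaks did not separate the arms. The median summit held 16 HMGA1 reads in distal 7q (quartiles 14 and 21) and 16 in 7p (13 and 20) in the input list, and the interval of the difference ran from 0 to 1 read. Over H3 the median was 20 reads in distal 7q and 20 in 7p, with quartiles of 17 and 24 in each. The median fold over input was 4.4 in distal 7q and 4.23 in 7p, with overlapping intervals (4.23 to 4.5 and 4.23 to 4.39). Over H3 it was 5 in each arm. Peak widths were alike too, with medians of 284 bp in distal 7q and 283 bp in 7p over input, and 259 and 264.5 bp over H3. Neighbouring summits lay a median of 4022 bp apart in distal 7q and 4188 bp apart in 7p (input list).

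Most members sat at the lowest control level. In the input list this held for 5485 of 7175 peaks of distal 7q (76.4%, Wilson interval 75.45 to 77.41) and 78.2% of 7p peaks (77.2 to 79.2), against a background of 36.4% over the whole input list. The corresponding H3-list shares were 82.0% in distal 7q (80.7 to 83.2) and 84.7% in 7p (83.5 to 85.9), against a background of 42.9% over the whole H3 list. Distal 7q minus 7p was −1.78 percentage points over input (−3.17 to −0.383) and −2.73 over H3 (−4.43 to −1.03). Without the 3 bins where the input-list share was lowest, 2 in distal 7q and 1 in 7p, the input-list difference was −1.19 points. Its interval of −2.59 to 0.216 includes 0. The H3-list difference was then −2.14 (−3.82 to −0.445). The bins were picked after the data were seen, by the input-list share itself. As 2 of the 3 lay in distal 7q, that choice favours a smaller input-list difference and is not a separate check. Where the control was above its lowest level, it stood at a median of 1.28 times that level over input in distal 7q, 1.28 in 7p and 1.28 on the other autosomes.

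Both arms had a higher share than most of the genome in this measure. Chromosome 7 as a whole had the highest share at the lowest control level of all 22 autosomes, 78.0% over input and 83.6% over H3. Among the other 21 autosomes the share over input ran from 2.94% to 77.1% with a median of 38.8%, and 19 of the 21 lay below distal 7q. Over H3 all 21 lay below it. The highest was chromosome 14 at 81.05% (79.96 to 82.09), an interval that overlaps the 80.7 to 83.2 of distal 7q. Chromosomes 14 and 16 were the nearest over input, at 77.1% and 76.9%, with 90.7 and 50.1 peaks per Mb against the 117.4 of distal 7q. These 2 chromosomes were picked for comparison after their values were seen. Shares this high were also found in many single bins elsewhere. Over 2 Mb bins the median share of distal 7q was 77.0% over input and 81.0% over H3. Among bins of the other autosomes with at least 20 peaks, 78.9% of 1293 lay below that median over input. Over H3 it was 77.3% of 1278.

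**Figure D1:**
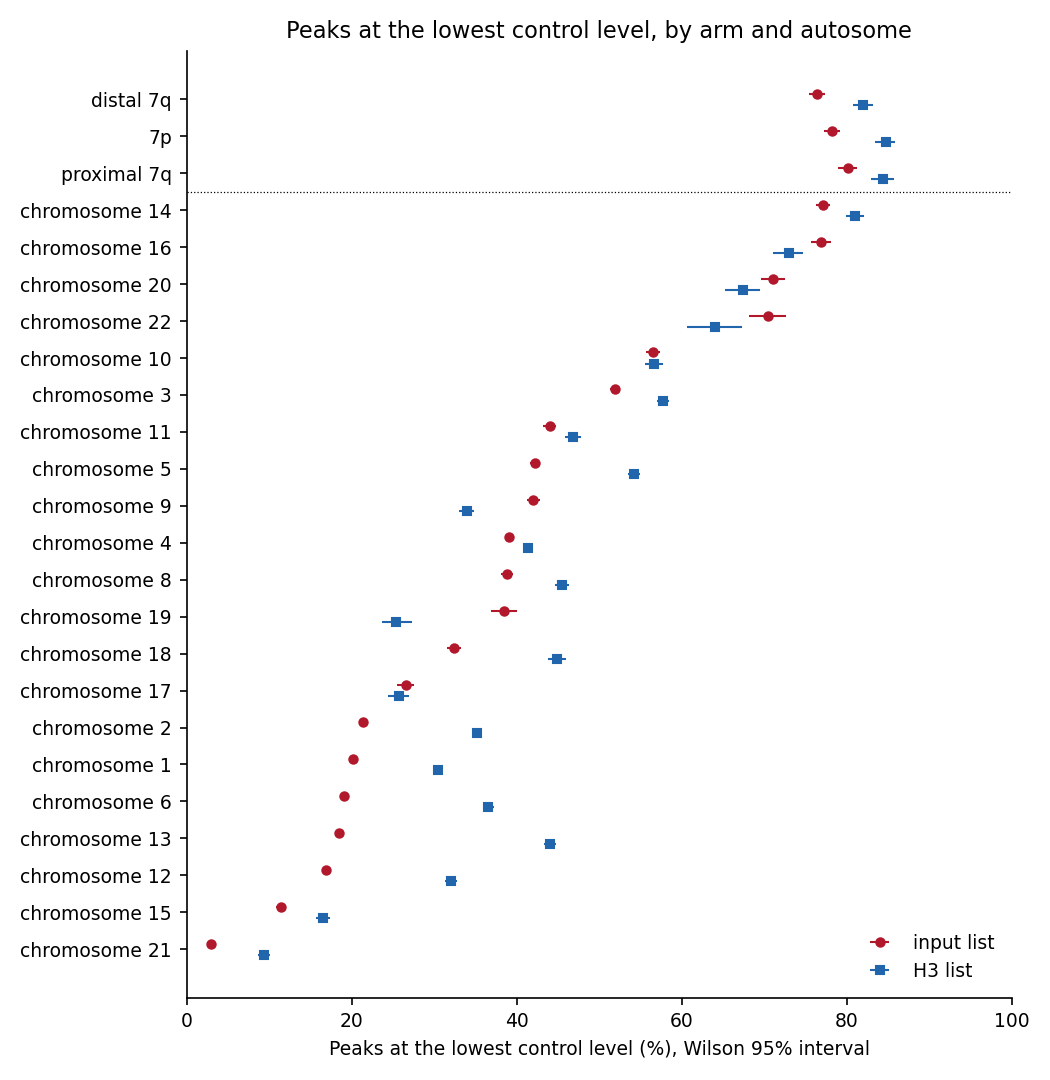
Share of peaks at the lowest control level (x axis, percent) in distal 7q, 7p and the inner long arm (above the dotted line) and in each other autosome (below it, ordered by the input list). Points are shares with Wilson 95% intervals, circles for the input list and squares for the H3 list. The 3 stretches of chromosome 7 lie near the top of the range in both lists, with distal 7q at 76.4% and 82.0%. Over input, chromosomes 14 (77.1%) and 16 (76.9%) lie above distal 7q.

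Summits in distal 7q were lower than on the other autosomes pooled, as in 7p and the inner long arm. Those with 25 or more HMGA1 reads made up 12.4% of the input-list peaks in distal 7q (891 peaks) and 11.7% in 7p, against a background of 28.3% over the whole input list. Over H3 they were 22.75% in distal 7q and 22.5% in 7p, against a background of 41.3% over the whole H3 list. The median on the other autosomes was 20 reads over input and 23 over H3. Among single autosomes it ran from 16 to 27 over input and from 20 to 31 over H3, and chromosome 14 had the same medians as distal 7q, 16 and 20. A peak needs fewer reads to pass the caller's threshold over a low control. Whether this bears on the lower summits of distal 7q was not tested. Among input-list peaks at the lowest control level the medians were 16 reads in distal 7q, 16 in 7p and 17 on the other autosomes. Above that level they were 18 in distal 7q, 17 in 7p and 21 on the other autosomes.

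**Figure D2:**
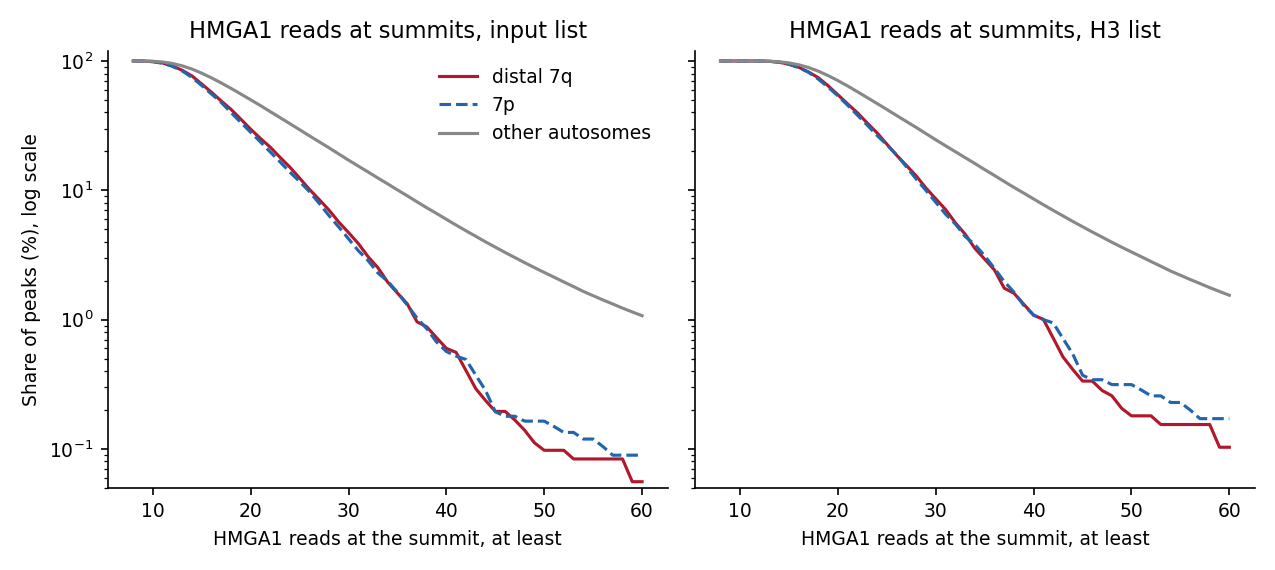
Share of peaks (y axis, percent, log scale) with at least the number of HMGA1 reads on the x axis at the summit, for the input list (left) and the H3 list (right). The lines for distal 7q and 7p run together over most of the range, below the line for the other autosomes. At 25 reads in the input list distal 7q stands at 12.4% and 7p at 11.7%.

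Within distal 7q the number of peaks changed far more than their height. Over the 30 whole bins of 2 Mb the input list held 64 to 603 peaks per bin, with a median of 197.5 (quartiles 134.8 and 305.2), a 9.42-fold span. Over the same bins the median HMGA1 reads ran only from 14 to 18 and the median fold from 3.97 to 4.59. The 29 bins of 7p spanned 33 to 495 peaks with a median of 203. Bins dense over input were also dense over H3 in distal 7q (Spearman rho 0.98 across 30 bins of the same HMGA1 library). The number of input-list peaks per bin and the share at the lowest control level had a rho of −0.05 across these bins, and the number of peaks and the median reads one of 0.04. Over H3 the first of these was 0.62. These values describe neighbouring bins of single libraries.

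The densest stretch, the longest run of neighbouring bins above the mean of 237.3 input-list peaks, reached from base 108000001 to 126000000. This rule was set after the bins were seen. It selects on input-list counts, so a higher input-list density inside the stretch than outside follows from the choice. The H3 list shares the HMGA1 library, so its density there is not separate support. The stretch made up 29.5% of the length of distal 7q. It held 3697 input-list peaks (51.5% of the members) and 2084 H3-list peaks (53.6%). Its density over input was 205.4 peaks per Mb (198.8 to 212.1), against 80.7 (78.0 to 83.4) in the rest of distal 7q. Its peaks were no taller, with a median of 16 reads in the stretch and 16 in the rest, and 76.4% of them were at the lowest input level, against 76.5% in the rest. Over H3 the stretch had 115.8 peaks per Mb, against 41.8 in the rest, and 86.4% of its peaks were at the lowest level, against 76.9% in the rest. The 3 densest bins all lay inside it. Of these, 118000001 to 120000000 had 603 input-list and 371 H3-list peaks. The bin from 124000001 to 126000000 had 512 input-list and 301 H3-list peaks, and that from 114000001 to 116000000 had 494 and 311. Dense runs were not particular to distal 7q. In the inner long arm the bins from 80000001 to 86000000 held 483, 523 and 586 input-list peaks. In 7p those from 8000001 to 16000000 held 412, 420, 449 and 495.

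Few peaks were found at the 2 ends of distal 7q. The sparsest whole bin over input was 100000001 to 102000000, with 64 peaks, followed by 98000001 to 100000000 and 156000001 to 158000000 with 86 peaks each. From 152000001 to the last covered base, 159109234, the input list held 49.9 peaks per Mb (44.9 to 55.4) and the H3 list 20.8 (17.6 to 24.5). The bin from 154000001 to 156000000 had the highest share at the lowest input level, 92.0% of 87 peaks, and the lowest median height, 14 reads. Only 24.1% of its peaks had an H3-list counterpart. The last 2 Mb of the long arm held 71 input-list peaks and the first 2 Mb of the short arm 33, so both chromosome ends were sparse. Peaks just either side of the 98000000 boundary held 12 to 19 HMGA1 reads. The first input-list member, from 98089168 to 98089354, had 12 reads, below the lower quartile of 14 in distal 7q, and a 3.44-fold enrichment. The last peak outside, from 97982564 to 97983069, had 19 reads and 4.39-fold. Over H3 the first member (98139895 to 98140243) had 17 reads and 4.51-fold, and the last outside (97982866 to 97983069) had 19 reads and 5-fold.

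**Figure D3:**
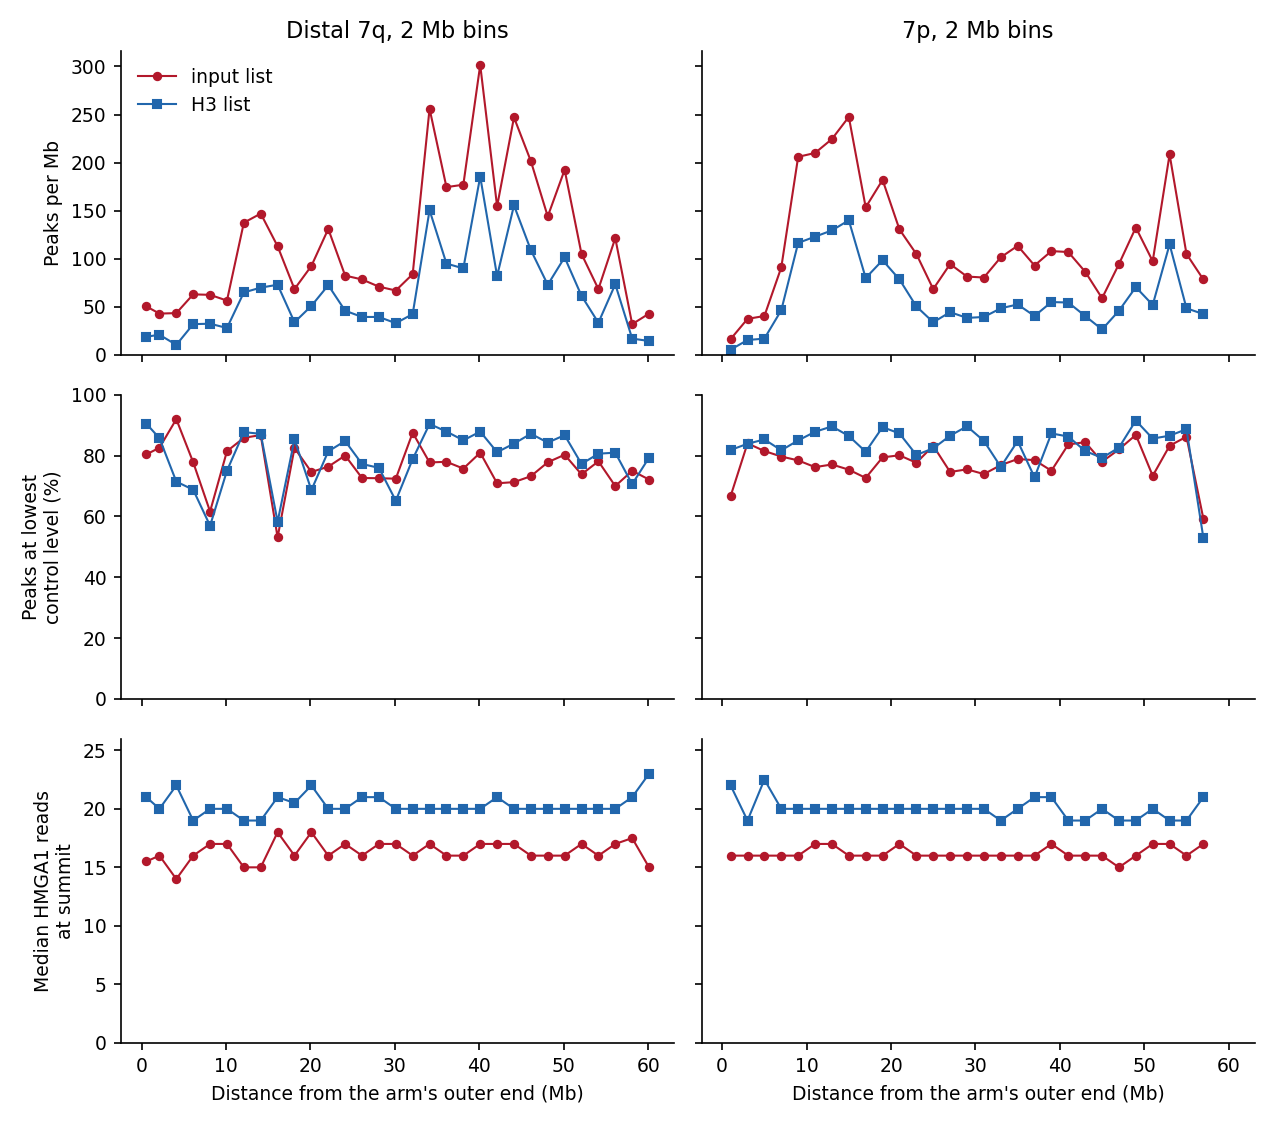
Peaks per Mb, share of peaks at the lowest control level and median HMGA1 reads at the summit (y axes, top to bottom) in 2 Mb bins of distal 7q (left) and 7p (right), by distance of the bin's middle from the arm's outer end in Mb (x axis). Circles are the input list, squares the H3 list. Density reaches 301.5 peaks per Mb over input in distal 7q, in the bin of 603 peaks, while the median reads stay between 14 and 18 over input.

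CUX1 and EZH2 could be placed only to the nearest 0.1 Mb in hg19, so their bins rather than the genes are described. The bin that holds CUX1 (100000001 to 102000000) was the sparsest whole bin of distal 7q over input, with 64 input-list peaks (exact Poisson interval 49.3 to 81.7) and 34 H3-list peaks (23.6 to 47.5). Its peaks were not low, with a median of 17.5 reads over input and 21 over H3. The highest fold in it was 9.26 over input and 8.7 over H3. In this bin 75% of the input-list peaks (63.2 to 84.0) and 70.6% of the H3-list peaks (53.8 to 83.2) were at the lowest control level. The bin that holds EZH2 (148000001 to 150000000) had 113 input-list peaks (93.1 to 135.9), 26th of 31 bins in number, and 56 over H3. Its median height was 17 reads, its highest fold 9.52, and 81.4% of its input-list peaks (73.25 to 87.51) and 75% of its H3-list peaks (62.3 to 84.5) were at the lowest level. In both bins and both lists these intervals include the share of distal 7q as a whole, 76.4% over input and 82.0% over H3.

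The input level was raised in short blocks. No bin of distal 7q had a median control level of 1.5 times the lowest or more (0 of 31 in each list). The bin from 142000001 to 144000000 had 53.1% of its 226 input-list peaks at the lowest level (46.6 to 59.5), and the bin from 150000001 to 152000000 had 61.6% of 125 (52.85 to 69.66). The other bins of distal 7q had 70.0% to 92.0% over input. Over H3 the same pair had 58.2% and 56.9%. Control levels of 1.5 times the lowest or more were found at 7.01% of the input-list peaks of distal 7q (503) and 5.99% in 7p, against a background of 23.0% over the whole input list. Over H3 they were found at 4.3% in distal 7q and 3.43% in 7p, against a background of 17.8% over the whole H3 list.

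Windows of 200 kb were looked at after the bins. Of 239 windows with at least 10 input-list peaks, 5 had a median control of at least 1.2 times the lowest level. They formed 2 blocks of 400 kb and 1 single window, 102200001 to 102400000, which held 13 peaks with a median of 23 reads. Over H3, 1 of 157 such windows passed the same rule, 151800001 to 152000000, and the windows of the block from 143200001 to 143600000 had medians of 1.13 and 1.02 times the lowest H3 level. From 143200001 to 143600000 there were 81 input-list peaks with a median of 21 reads, and 22.2% of them were at the lowest input level. From 151800001 to 152200000 there were 62 peaks with a median of 19 reads, 32.3% of them at the lowest level. Both blocks were picked by their input level. Their low shares at the lowest input level, and a gathering of high input levels in them, follow from that choice. An input level of at least 2 times the lowest was found at 64 peaks of distal 7q (0.892%, against a background of 7.88% over the whole input list), 15 in the first block, 17 in the second and 32 elsewhere. For H3 it was 34 peaks (0.875%, against a background of 7.42% over the whole H3 list), 2 in the first block, 9 in the second and 23 elsewhere. Levels of at least 3 times were found at 12 input-list peaks (0.167%, background 1.86%), 10 of them in the second block, and at 6 H3-list peaks (0.154%, background 2.13%), 5 of them there. The highest input level, 20.5 reads or 7.36 times the lowest, was at the peak from 152108763 to 152109022, where 47 HMGA1 reads gave a fold of only 2.24. No H3-list peak overlapped it, so its H3 level is not known. The highest H3 level was in the same block, 15 reads or 6.85 times the lowest, at the peak from 152112261 to 152112578. Mappability and gene content of these blocks were not analysed here.

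**Figure D4:**
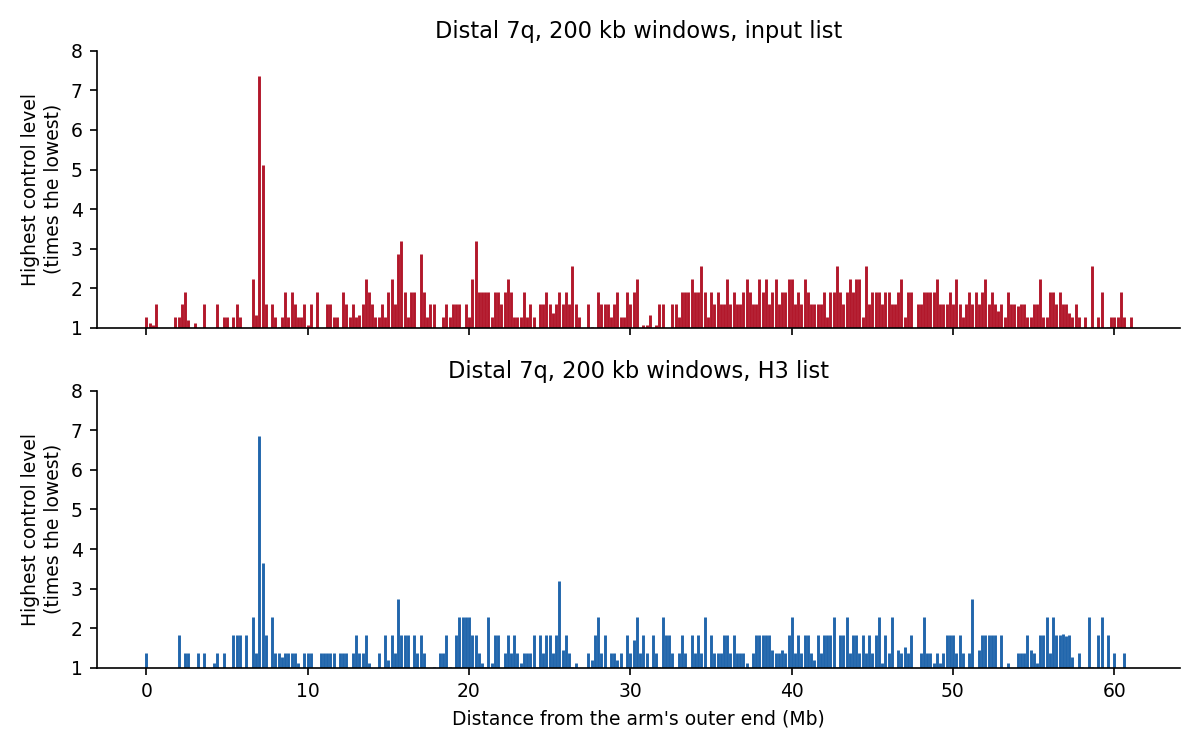
Highest control level at any peak in each 200 kb window of distal 7q (y axis, times the lowest level), by distance of the window's middle from the outer end in Mb (x axis), for the input list (top) and the H3 list (bottom). Each line is 1 window with at least 1 peak, drawn from the lowest level of 1. The tallest lines in both panels fall in the block from 151800001 to 152200000, at 7.36 times over input and 6.85 times over H3.

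The tallest HMGA1 peaks in distal 7q fell mainly in that second block. There were 7 peaks with 50 or more HMGA1 reads in each list, few beside the rest of the genome. They were 0.0976% of the input-list members and 0.164% in 7p (11 peaks), against a background of 2.19% over the whole input list, and 0.18% of the H3-list members and 0.314% in 7p, against a background of 3.22% over the whole H3 list. In distal 7q, 5 of the 7 lay between 151800001 and 152200000. The tallest, from 152107572 to 152107873, held 101 HMGA1 reads over an input level of 13.6 reads, which gave 6.97-fold over input and 6.19-fold over H3. Its neighbours from 152106712 to 152107017 and from 152112211 to 152112618 held 78 and 58 reads at 5.19-fold and 3.66-fold over input. The peak from 151944438 to 151944739 had 61 reads and 11-fold enrichment over an input level of 4.66 reads. The peak from 151988914 to 151989209 had 52 reads and 5.35-fold. All 5 had input above its lowest level, by 1.67 to 5.44 times, and 3 of the 5 folds were below 6.8, the 90th percentile of distal 7q.

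The 5 highest folds of each list were outside that block. The highest over input, 15.6, was at the peak from 143398706 to 143399065, inside the block from 143200001 to 143600000, with 58 HMGA1 reads and input and H3 both at their lowest levels. Over H3 it was 14.6-fold. The peak from 102203003 to 102203841 had the highest fold over H3, 16.6, with 75 reads and an H3 level of 2.62 reads. Over input it had 13.9-fold at an input level of 4.45 reads, 1.6 times the lowest, and it lay in the single raised window. It ranked first by q-value in both lists. Peaks from 121726319 to 121726807 and from 112555457 to 112555846 followed over input with 49 reads (13.2-fold) and 48 reads (13-fold), each with both controls at their lowest level. A peak from 139065944 to 139066319 showed the largest contrast between controls among these. Its 47 reads gave 12.7-fold over input, at the lowest input level, and 6.33-fold over H3, where H3 stood at 2.28 times its lowest level. Among the 5 highest folds over H3 was also a peak from 107109294 to 107109654 with 48 reads, 12.2-fold over H3 and 12.3-fold over input. All 5 highest-fold peaks of each list had a counterpart in the other, with the summit on the same base.

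The widest members differed in height. The widest over input, from 118109245 to 118111272, spanned 2028 bp with 18 reads at its summit and a fold of 3.49, and 2 separate H3-list peaks lay under it. The peak from 124010074 to 124011928 (1855 bp, 30 reads, 7.76-fold) had 4 H3-list peaks under it. The next, from 125273130 to 125274892, spanned 1763 bp with 42 reads and 10.8-fold. The last 2 of the 5 widest, of 1694 bp from 115534679 and 1644 bp from 136589828, had 26 and 29 reads. Apart from the widest, these summits were at or above the 90th percentile of distal 7q, 26 reads. All but the last lay in the dense stretch. Peaks of 1 kb or more made up 1.24% of input-list members (89) and 0.969% in 7p, against a background of 2.0% over the whole input list. In the H3 list there were 14 in distal 7q (0.36%) and 11 in 7p (0.314%), against a background of 1.42% over the whole H3 list.

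Fewer input-list peaks of distal 7q were also called over H3 than in the list as a whole. An overlapping H3-list peak (at least 1 bp shared) was found for 52.9% of the input-list members (51.8 to 54.1) and for 51.1% in 7p (49.9 to 52.3), against a background of 65.8% over the whole input list. In the other direction 99.7% of H3-list members had an input-list peak, 99.6% in 7p, against a background of 98.3% over the whole H3 list. Members without an H3-list counterpart were low, with a median of 14 reads against 20 for those with one. Both lists use the same HMGA1 reads, and the lowest members held 8 reads over input and 11 over H3. A lower share at lower heights is therefore built into the calling.

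From 16 reads upward, distal 7q was not below the whole list at equal height. With 16 to 17 reads at the summit, 52.2% of the distal 7q peaks had a counterpart (49.2 to 55.2), as did 52.5% in 7p and 50.9% in the whole list (50.4 to 51.3). With 18 to 20 reads the share was 86.8% in distal 7q (84.8 to 88.6), 85.1% in 7p and 79.2% in the whole list (78.9 to 79.6). With 21 to 24 reads it was 98.9% in distal 7q (98 to 99.4), 98.6% in 7p and 93.8% in the whole list (93.6 to 94.0). In lower classes it was below, with 6.19% (4.89 to 7.79) against 8.86% (8.58 to 9.15) at 12 to 13 reads and 22.7% (20.6 to 24.97) against 25.1% (24.7 to 25.5) at 14 to 15. Distal 7q also had more of its peaks in the low classes, with 8.52% at 8 to 11 reads against 4.66% in the whole list.

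**Figure D5:**
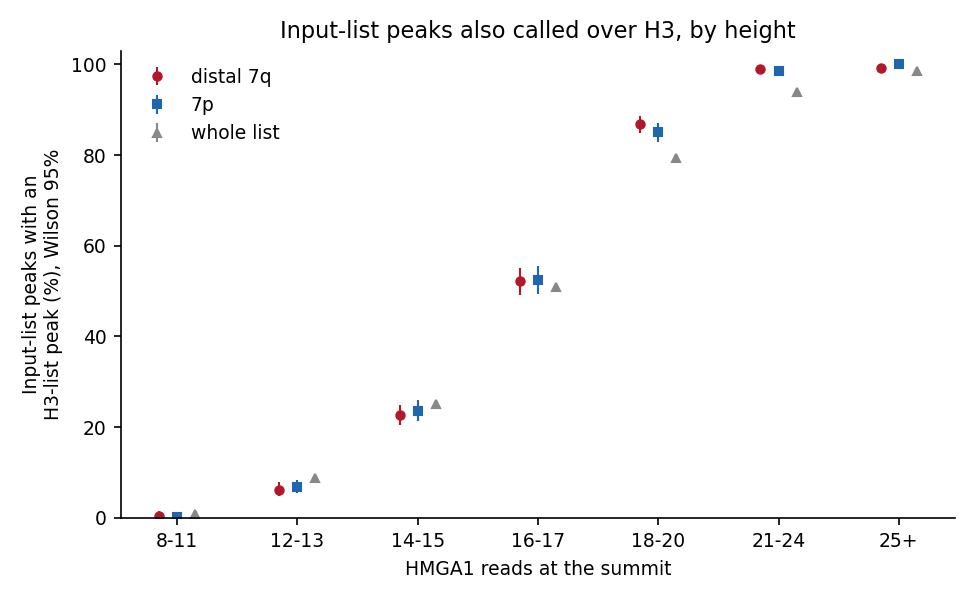
Share of input-list peaks that overlap an H3-list peak (y axis, percent, with Wilson 95% intervals) by HMGA1 reads at the summit (x axis, 7 classes) for distal 7q, 7p and the whole list. In all 3 the share climbs steeply, in distal 7q from 0.491% at 8 to 11 reads to 99.1% at 25 or more.

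At 25 or more reads, 8 input-list members had no H3-list counterpart (0.898%), against none of the 785 such peaks of 7p and 1.47% of those in the whole list. The 8 held 25 to 47 reads at folds of 2.06 to 4.77, and none was at the lowest input level. Of these, 6 lay in the block from 151800001 to 152200000 and 1 in the block from 143200001 to 143600000.

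Summits placed on an identical base by both lists let the input and H3 levels be set side by side. This was so for 1777 summits in distal 7q, with equal HMGA1 reads in all 1777, and for 1684 in 7p. Both controls were at their lowest level at 62.0% of these sites in distal 7q, 66.4% in 7p and 22.5% in the whole series. Input alone was above its lowest level at 20.7% in distal 7q, H3 alone at 11.8%, and both at 5.57%, against 22.4%, 7.51% and 47.6% in the whole series. Relative to its own lowest level, input exceeded H3 by over 1.5 times at 121 of these sites (6.81%) in distal 7q, at 6.59% in 7p and at 11.8% in the whole series. The reverse was found at 52 sites (2.93%) in distal 7q, 2.08% in 7p and 4.12% in the whole series.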

How the data were processed

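The authors deposited 2 MACS2 peak lists on hg19 (per the submitters' processing notes), 1 HMGA1 library against input and the same library against H3. For MACS2's version, the aligner and any read filter: not given in the sources used here. Peak names in the deposited lists carry another prefix than HMGA1, and the ChIP library was taken to be HMGA1 from the labels. In the deposited lists each peak has a score, a fold ratio, a p-value and q-value as −log10, and a summit. Reads and control levels were recovered per peak from fold and p-value, as the whole pileup returning the printed −log10 p within 0.001, with HMGA1 scaled by 0.787 in the H3 list (factor fitted on 400 peaks). All 385953 input-list peaks fitted, as did 263031 of 263033 H3-list peaks. The recovery was tested on simulated data. Total read numbers are unknown. Levels within 0.1% of the minimum counted as lowest. Arm length ends at the last covered base. Intervals are Wilson, exact Poisson or order-statistic, and ignore duplicate reads and dependence between peaks. Peaks named were the 5 highest by fold and by q-value in each list, the 5 widest over input and those at the boundary; bins named were the 3 densest, the 3 sparsest and those of CUX1 and EZH2. Other peaks, blocks and stretches were picked after their values were seen. The members and lists were chosen with earlier results of these data known. An hg19 genome or annotation was not used here, so gene overlap and AT content were not analysed and no sequence is shown. Values were computed in Python 3.11.15 with scipy 1.17.1, numpy 2.4.6 and pandas 2.3.3, and plotted with matplotlib 3.10.9. Coordinates are 1-based.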

Additional observations from a re-analysis of the deposited data

How the results depend on the processing

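There was 1 library per antibody, so no replicate could be left out. No paired analysis was possible because each antibody had a single library. The lowest members held 8 HMGA1 reads over input and 11 over H3, so weaker sites could not be seen at this depth. Of the alternatives to the comparisons with 7p and to the densest and sparsest bins, 59 stayed within the interval of the value reported, 16 moved out of it and 5 changed direction where that interval had excluded no difference. With the 20000 highest-q peaks the distal 7q to 7p density ratio was 1.05 over input and 0.913 over H3, the difference in share at the lowest control level −3.19 points (input) and 3.13 (H3), and the difference in overlap with the other list −0.691 (input) and 11.2 (H3), on 93 input-list and 75 H3-list members. With 25 or more reads the input-list density ratio was 1.08 and the overlap difference −0.898 points. With distal 7q begun 10 Mb further out the density ratios were 1.09 (input) and 1.13 (H3). Against the inner long arm they were 0.968 and 0.973, and the input-list difference at the lowest level was −3.67 points. The H3-list difference in median reads was 1 with a −log10 q of at least 5 and 1 with a fold of at least 4. The H3-list overlap difference was −0.443 points with peaks under 1 kb, −0.671 where 50% of each peak had to overlap and −0.503 where summits had to lie within 200 bp of each other. The densest bin held 234.2 peaks per Mb in bins of 5 Mb, and the sparsest 20 in bins of 1 Mb and 61.4 in bins of 5 Mb, against 301.5 and 32.0. No stretch of 1 Mb without peaks lay in either arm. Leaving out the 3 bins of raised control was chosen after the data were seen. For each of these, the cause was not tested.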

Other observations

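Tight groups of input-list HMGA1 sites were about as many in distal 7q as in 7p. Runs of 3 or more input-list summits, each under 1000 bp from the next, numbered 112 and held 360 of 7175 peaks. In 7p there were 108 runs with 346 of 6709 peaks. Such runs were not counted over the whole list. The longest run in distal 7q had 6 peaks, from 136522967 to 136526775, with 11 to 22 HMGA1 reads each. Over H3 the longest also had 6 peaks, from 115282702 to 115286472, with 16 to 33 reads. At the other extreme, the longest stretch between input-list peaks of distal 7q was 249501 bp, from 127515038 to 127764538, and the next ran from 131745789 to 131983909. Over H3 the longest stretch, 467593 bp from 131733356 to 132200948, took in that second one. Of 306 windows of 200 kb in distal 7q, 1 had no input-list peak and 8 had no H3-list peak.

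Peaks called over H3 and not over input numbered 12 of 3885 in distal 7q and 13 of 3500 in 7p. The background was 4537 of 263033 over the whole H3 list. The 12 in distal 7q held 13 to 32 HMGA1 reads at folds of 2.91 to 5.5. Of these, 9 of the 12 had H3 at its lowest level. The same held for 69.2% of such peaks in 7p, against a background of 25.5% of those in the whole H3 list. The tallest of the 12, from 151971279 to 151971522, had 32 reads over an H3 level of 8.0 reads. It lay in the block of raised control described above.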
